A study of Mus musculus with 53 samples.

Results

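Striatal gene expression was compared between SCA3 and wild-type mice in 13 of the 53 RNA sequencing libraries of the study, chosen as all libraries labelled striatum, with 8 from wild-type and 5 from SCA3 mice. The other libraries came from brainstem (14), cerebellum (13) and cortex (13) of the same mice and of 1 more SCA3 mouse. SCA3 mice were of the MJD84.2 line on a C57BL/6 background and carried, in hemizygous state, the complete human ATXN3 gene, its CAG repeat expanded and its own promoter driving it, next to their intact mouse Atxn3. Wild-type mice were C57BL/6, and all mice of both groups were untreated males of 74 to 77 weeks. MJD84.2 is a single transgenic line, so effects of the transgene and of its place of insertion cannot be told apart.

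Spinocerebellar ataxia type 3 is caused by a lengthened polyglutamine stretch in ataxin-3, an enzyme that removes ubiquitin from proteins. The striatum is built mainly of GABAergic projection neurons, which fall into a direct pathway class with dopamine D1 receptors and an indirect pathway class with D2 receptors. It also holds scattered cholinergic and GABAergic interneurons, crossing bundles of myelinated axons with their oligodendrocytes, and astrocytes. It borders the cortex, the septum and basal forebrain, and lies close to the thalamus, so that a dissected piece can include some of these.

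Libraries held 36.5 to 69.6 M (mega) counts in wild-type and 55.8 to 71.3 M counts in SCA3 mice. RNA integrity (RIN) was 7.48 ± 0.979 (SD, n = 8) in wild-type and 7.4 ± 1.02 (n = 5) in SCA3 mice, and neither this difference of -0.075 (exact two-sided permutation p = 0.91) nor that in counts of 3.55 M (exact permutation p = 0.59) passed the test. Bodyweight was 43.4 ± 5.61 g (SD, n = 8) in wild-type and 31 ± 2.85 g (n = 5) in SCA3 mice. The ranges of 37.2 to 53.6 g and 28.2 to 34.7 g did not overlap, and the exact permutation p of 0.00078 (0.0023 adjusted over the 3 measures) was the smallest this design allows. Bodyweight and genotype therefore cannot be told apart in any gene described below.

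The libraries differed in their levels of markers of striatum and of neighbouring tissue. Summed over 19 markers shared by striatal projection neurons, among them Ppp1r1b (DARPP-32) and Pde10a, the level ran from 5137 to 18807 CPM (counts scaled to library size) in wild-type and from 12272 to 17872 CPM in SCA3 mice. Wild-type mice 9082857 and 9083371 had 18807 and 18781 CPM and thus lay above all SCA3 libraries, while the other 6 wild-type libraries, at 11617 CPM or less, lay below all of them. Summed over 10 thalamic markers, wild-type mice 7267058 and 7267059 had 1690 and 2546 CPM, against 202 to 576 CPM in the other wild-type and 205 to 438 CPM in the SCA3 libraries. The same 2 libraries had the highest sums of 22 mature oligodendrocyte markers, 16584 and 22903 CPM, against 7460 to 14295 CPM in the other 11. The dopamine receptor genes Drd1 and Drd2 were at 67.2 and 48.1 CPM or more in all libraries. Other markers of the striatal classes were not analysed here, namely Isl1 of the direct pathway, Gpr6 and Sp9 of the indirect pathway, and Slc18a3 and Lhx8 of cholinergic neurons. In tissue pieces such as these, fewer cells of a type and less RNA per cell cannot be told apart.

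Beside the fit of the 13 libraries, 2 further fits were therefore made: one without the 2 libraries high in thalamic markers, and one with the mean log2 level of the 19 projection neuron markers as a covariate. The second was chosen after seeing the data. Their values are given below wherever they end a call. Without the 2 libraries, 9 of the called genes named below lost their call: Htr2a, Nt5e, Zic1, Rasd1, Glul, Rps6ka1, Fads2, Apoe and Gstm7 (FDR = 0.0713, 0.0829, 0.0775, 0.0836, 0.0648, 0.0832, 0.0651, 0.0544 and 0.0587). Their log2 fold changes in that fit, in the same order, were 0.79, 0.69, -2.06, -2.31, -0.34, -0.36, -0.36, -0.33 and -0.57, against 0.91, 0.76, -2.17, -2.65, -0.45, -0.48, -0.42, -0.39 and -0.76 over all libraries.

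In the fit of the 13 libraries, 88 of 12372 genes (0.711%) had a false discovery rate (FDR) below 0.05 in the edgeR likelihood ratio test, 25 higher in SCA3 mice (0.202%) and 63 lower (0.509%). The median absolute log2 fold change was 0.703 over the 88 genes and 0.109 over all genes. An unadjusted p below 0.05 in this test was found for 1735 of the 12372 genes, the count to set beside those of the lists below. For 15 of the higher and 25 of the lower genes, all SCA3 libraries lay outside the range of all wild-type libraries; over all genes tested this held for 0.218% above and 0.388% below. Without the 2 libraries high in thalamic markers 108 genes were called (0.873% of those tested), among them 65 of the 88, now with 50 higher and 58 lower. With the projection neuron score as covariate 33 genes were called (0.267%), 16 higher and 17 lower, among them 22 of the 88. Of the 40 called genes whose groups did not overlap, 14 kept the call with this covariate, and of the 48 whose groups overlapped, 8 did.

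The number of calls rested on single mice. It was 538 without wild-type mouse 9082857 and 330 without wild-type mouse 9083371, the 2 highest in projection neuron markers, and fell to 57, 57, 54 and 49 without wild-type mice 7267055, 7267058, 9083372 and 9083373. It was 33, 19 and 20 without SCA3 mice 7267054, 7267056 and 9083515. The quasi-likelihood test of edgeR called 6 genes, all among the 88: Tmc3, Fbxw15, Zfp488, Car2, Arsb and Gstp1. A fit of all 53 libraries, which takes the spread of all regions together, called 933 genes in striatum (7.54%), 256 higher (2.07%) and 677 lower (5.47%), 79 of them among the 88. Unless another fit is named, calls below are those of the likelihood ratio test in the 13 libraries.

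Tmc3, a member of the transmembrane channel-like family, had the smallest p of all genes (chromosome 7, 83584904 to 83626852, GRCm38.p6). Its level was 5.51, 6.74, 5.09, 4.45, 5.6, 4.87, 5.32 and 4.89 CPM in the 8 wild-type libraries and 15.1, 15, 14.9, 13.1 and 15.4 CPM in the 5 SCA3 libraries. The groups were far apart, and the wild-type libraries rich or poor in projection neuron markers did not differ visibly in Tmc3. The log2 fold change was 1.47 ± 0.12 (SE, FDR = 6.16e-33), a 2.77-fold higher level, and 1.51 ± 0.13 with the projection neuron covariate. Zfp488, a zinc finger factor known from oligodendrocyte differentiation (chromosome 14, 33967070 to 33979034), was between 4.13 and 5.87 CPM in 7 wild-type libraries and 9.76 CPM in that of mouse 7267059. It was 12.9, 14.2, 15.8, 11.7 and 13.6 CPM in the SCA3 libraries, which again lay above all wild-type values. The log2 fold change was 1.29 ± 0.19 (SE, FDR = 2.76e-08), and 1.5 ± 0.13 without the 2 libraries high in thalamic markers. The study named both from these samples, as it did Chdh, Prob1, Rnf43, Car2, Il33, Psat1, Polr2a, Hist1h2be, Arsb, Ppl, Fbxw15, Cbs, Glul, Kcnk13, Qdpr and Enpp6, so none of these was chosen independently of them. Tmc3 and Zfp488 kept their call under all 34 alternatives. Within the largest series of mouse numbers (4 wild-type, 2 SCA3) the log2 fold changes were 1.45 for Tmc3 and 1.43 for Zfp488, and within the second (3 and 2 mice) 1.38 and 0.949.

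Since these are the 2 genes with the largest rise, 250 bases before the start site that the RefSeq promoter table gives are shown for each, 5′ to 3′ on the strand of the gene (GRCm38.p6). No letters are in capitals, which mark motifs in the windows shown further on. The Tmc3 window lies on the plus strand of chr7:83584681-83584930 and the Zfp488 window on the minus strand of chr14:33978765-33979014. These start sites lie within the gene spans given above, so that the Zfp488 window is inside that span and the Tmc3 window reaches into it.
Tmc3: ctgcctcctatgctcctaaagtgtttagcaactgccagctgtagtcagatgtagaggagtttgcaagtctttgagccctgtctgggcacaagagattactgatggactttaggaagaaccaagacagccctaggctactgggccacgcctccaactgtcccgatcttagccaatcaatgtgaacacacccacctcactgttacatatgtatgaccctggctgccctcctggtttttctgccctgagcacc
Zfp488: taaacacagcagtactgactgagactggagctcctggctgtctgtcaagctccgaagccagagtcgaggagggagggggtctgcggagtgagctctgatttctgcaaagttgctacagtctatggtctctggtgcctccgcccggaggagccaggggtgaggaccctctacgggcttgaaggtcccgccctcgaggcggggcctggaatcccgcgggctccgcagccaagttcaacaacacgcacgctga
Both were searched on both strands for the cAMP response element TGACGTCA, bound by CREB, and for the sterol response element TCACNCCAC, bound by SREBP. Neither window held these letters. Among the 25 higher genes, 21 had windows in the table (26 windows), and 0 held either motif. Over the windows of all measured genes, 2.62% held TGACGTCA and 1.05% held TCACNCCAC.

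**Figure D1:**
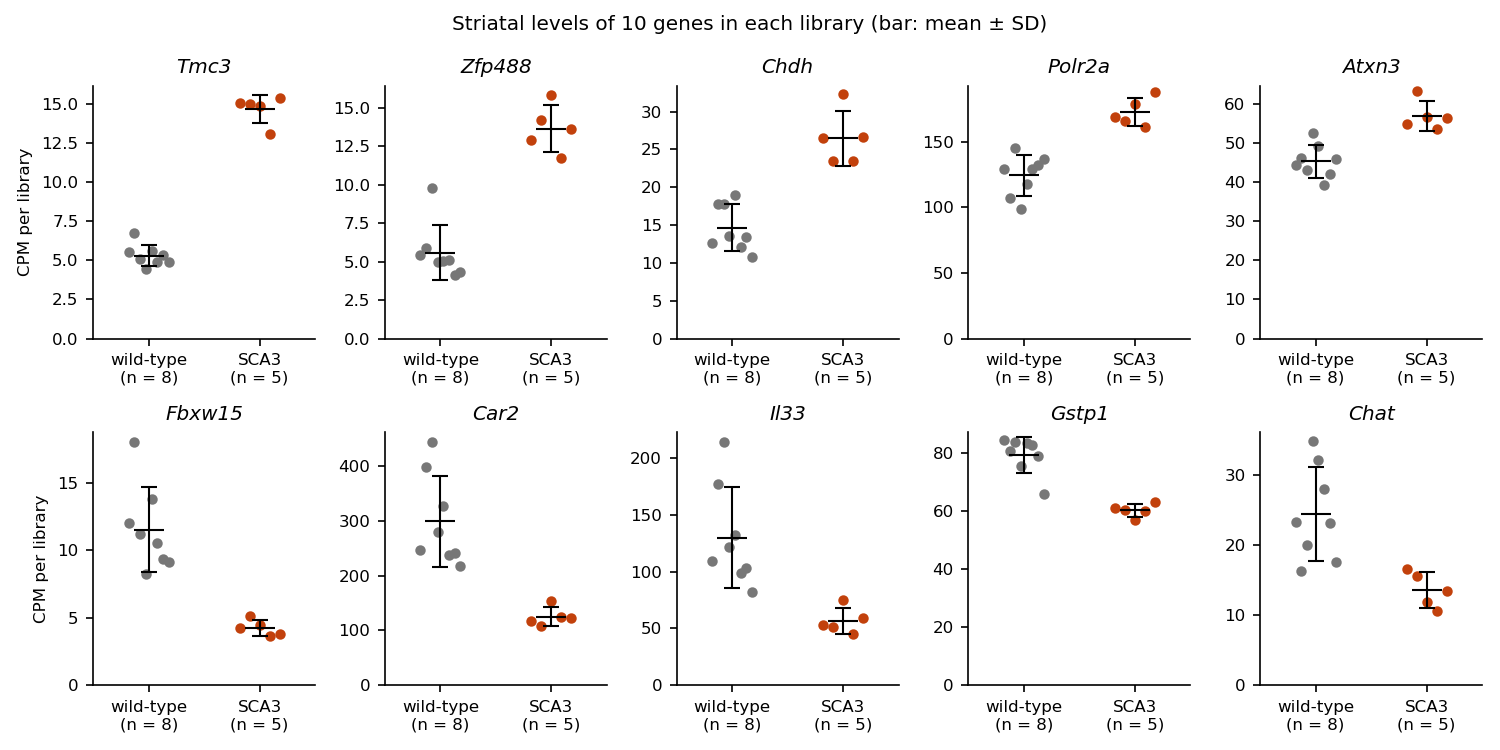
Level in CPM (y axis, linear from 0) of 10 genes in each striatal library; grey points are the 8 wild-type and orange points the 5 SCA3 mice, and the bars give the mean ± SD. For Tmc3 all SCA3 libraries lie at 13.1 CPM or above and all wild-type libraries at 6.74 CPM or below, and among the 10 genes the groups overlap for Chat alone.

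Of the other higher genes, Chdh oxidizes choline in mitochondria (chromosome 14, 30008901 to 30040468). Without strand information its counts cannot be parted fully from those of the overlapping Cacna1d, nor those of Gpr153, Lgi4, Enho, Rasd1 and Zic1, named below, from Hes3, Fxyd3, Dnaic1, Med9 and Zic4. Chdh was 10.8 to 19 CPM in wild-type and 26.5, 23.4, 32.3, 23.4 and 26.7 CPM in SCA3 mice, without overlap, and the log2 fold change was 0.85 ± 0.15 (FDR = 4.08e-05). Prob1, a proline-rich protein, was 7.52 to 14.7 CPM in wild-type and 14.7 to 18.1 CPM in SCA3 mice, where the groups met at the highest wild-type library (log2 fold change 0.68 ± 0.14, FDR = 0.00162). Eya4, a transcriptional co-activator with phosphatase activity, was 2.88 to 5.6 CPM against 5.82 to 8.06 CPM and had a log2 fold change of 0.78 ± 0.17 (FDR = 0.00254).

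Polr2a, the largest subunit of RNA polymerase II, was 98.6 to 145 CPM in wild-type and 161 to 188 CPM in SCA3 mice, which gave a log2 fold change of 0.47 ± 0.10 (FDR = 0.00254). Arsb, a lysosomal sulfatase, showed a small change with little spread: 102 ± 4.93 CPM (SD, n = 8) against 128 ± 6.18 CPM (n = 5), a log2 fold change of 0.32 ± 0.07 (FDR = 0.00344). Eya4, Polr2a and Arsb kept their call with the projection neuron covariate, as did Chdh and Prob1, and with fold changes of 0.97, 0.56, 0.31, 0.90 and 0.86.

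Hist1h2be, an H2B histone of a cluster with closely similar members whose counts are uncertain for that reason, was 6.2 to 12.1 CPM in wild-type and 12.3 to 18.7 CPM in SCA3 mice (log2 fold change 0.77 ± 0.17, FDR = 0.00264). All 6 measured histone cluster genes had positive fold changes with a median of 0.278, and Hist1h2be was the only 1 of them called. Rian, an imprinted non-coding RNA that hosts small RNAs, was 538 to 788 CPM against 890 to 990 CPM (log2 fold change 0.40 ± 0.10, FDR = 0.015). Acap2, which turns off the GTPase Arf6, was 123 to 200 CPM against 207 to 234 CPM (0.43 ± 0.11, FDR = 0.0186), and Bbx, an HMG-box factor, 58 to 73.2 CPM against 74.2 to 86.4 CPM (0.31 ± 0.08, FDR = 0.0248). These 4 genes did not overlap between groups, but none of them passed with the projection neuron covariate, where the fold changes were 0.64, 0.33, 0.32 and 0.25 (FDR = 0.0682, 0.135, 0.193 and 0.195).

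The remaining higher genes of the 15 with the smallest p overlapped between the groups, and in each of them the highest wild-type value came from mouse 9082857 or 9083371. Htr2a, the serotonin 2A receptor, was 21.2 CPM in wild-type mouse 9082857 and 7.84 to 12.8 CPM in the other wild-type mice, against 15.1 to 25.8 CPM in SCA3 mice. Its log2 fold change of 0.91 ± 0.23 (FDR = 0.0208) became 0.61 ± 0.18 with the covariate (FDR = 0.151). Ppp1r2, an inhibitor of protein phosphatase 1, and Pde1c, a calmodulin-dependent phosphodiesterase, had log2 fold changes of 0.51 ± 0.12 and 0.52 ± 0.13, and of 0.34 and 0.32 with the covariate (FDR = 0.107 and 0.145). Ppl, the junction protein periplakin, was 2.52 to 7.34 CPM against 7.25 to 10.9 CPM and kept its call (0.90 ± 0.21, FDR = 0.00556, and 0.60 ± 0.15, FDR = 0.0338, with the covariate). Nt5e, which forms adenosine outside the cell and was singled out after its values were seen, was 8.05 to 18.4 CPM against 16.2 to 25.8 CPM (0.76 ± 0.20, FDR = 0.0261, and 0.45, FDR = 0.191, with the covariate).

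The count given to mouse Atxn3 was 39.2 to 52.7 CPM in wild-type and 54.8, 63.4, 56.7, 53.7 and 56.3 CPM in SCA3 mice (chromosome 12, 101918901 to 101959121). All SCA3 libraries lay above all wild-type libraries, with 52.7 and 53.7 CPM as the closest values, and the log2 fold change was 0.33 ± 0.09 (SE, FDR = 0.0295). It was 0.26 with the projection neuron covariate (FDR = 0.281), and leaving out 1 mouse ended the call for 8 of the 13 mice (FDR 0.061 to 0.29). Reads of the human transgene were aligned to the mouse genome along with all others, and their share in the count of Atxn3 was not tested. In brainstem, cerebellum and cortex, each fitted alone, Atxn3 had log2 fold changes of 0.001 ± 0.07, 0.11 ± 0.07 and 0.15 ± 0.07 and was not called. The difference of striatum from the mean of these regions was 0.24 ± 0.07 and did not pass (FDR = 0.0686). Among the 20 measured genes for ataxin-3 partners and ubiquitin chain handling, such as Vcp and Stub1, 0 were called (2 at an unadjusted p below 0.05, and 0 by the quasi-likelihood test, limma-voom or DESeq2), with a median log2 fold change of -0.03. The other 8 polyglutamine disease genes measured were not called, and neither were any of 26 heat shock genes (1 at an unadjusted p below 0.05, 0 by the other tools).

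Among the lower genes, Fbxw15, Car2, Il33 and Gpr153 fell by more than 1 on the log2 scale with no overlap between groups, and the first 3 are described here. Fbxw15, of a family of F-box proteins with closely related neighbours on chromosome 9 (109552602 to 109568262), was 12, 18, 11.2, 8.2, 13.8, 10.5, 9.31 and 9.09 CPM in wild-type and 4.21, 5.12, 4.42, 3.64 and 3.79 CPM in SCA3 mice. Its log2 fold change was -1.44 ± 0.19 (SE, FDR = 3.18e-09). Car2, carbonic anhydrase 2, which in brain is made above all by oligodendrocytes (chromosome 3, 14886269 to 14900770), was 247, 399, 445, 280, 328, 238, 242 and 217 CPM in wild-type and 117, 108, 153, 125 and 122 CPM in SCA3 mice. The 2 highest wild-type values belonged to the 2 libraries high in thalamic and oligodendrocyte markers, and the lowest wild-type value still exceeded the highest SCA3 value. The log2 fold change was -1.26 ± 0.18 (FDR = 5.93e-08) over all libraries, -1.05 ± 0.12 without those 2 and -1.10 ± 0.18 with the projection neuron covariate. Within the largest and second series of mouse numbers it was -1.07 and -1.69. Of the 10 measured carbonic anhydrases, Car2 was the only 1 called.

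Il33, an alarmin cytokine that glia keep in the nucleus (chromosome 19, 29925113 to 29960718), was 82.1 to 214 CPM in wild-type, again highest in mice 7267059 and 7267058, against 53.1, 51.2, 74.7, 44.9 and 59.2 CPM in SCA3 mice. The log2 fold change was -1.20 ± 0.22 (SE, FDR = 0.000251), -0.93 ± 0.15 without those 2 libraries and -0.99 ± 0.22 with the covariate. Fbxw15 and Car2 kept their call under all 34 alternatives and Il33 under 32.

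Gstp1, a glutathione transferase with a near-identical neighbour, was 65.9 to 84.4 CPM in wild-type and 57 to 63.1 CPM in SCA3 mice (log2 fold change -0.40 ± 0.08, FDR = 0.001). Cbs, which joins homocysteine and serine and is found in astrocytes, was 37.1 to 46.3 CPM against 29.4 to 33.6 CPM (-0.40 ± 0.08, FDR = 0.00264). Both kept their call in either further fit. Gstt1 and the metallothionein Mt3, singled out after their values were seen, did not overlap between groups either (log2 fold changes -0.59 ± 0.14 and -0.35 ± 0.09), and had values of -0.42 and -0.34 with the covariate (FDR = 0.166 and 0.0913). Of the 18 measured genes of serine, choline and one-carbon metabolism, Chdh was called higher, Cbs was called lower and the median log2 fold change was 0.00229, against -0.00205 for all genes. Psat1, which makes phosphoserine, was 128 to 211 CPM in wild-type and 191 to 256 CPM in SCA3 mice, with a log2 fold change of 0.40 ± 0.14 that did not pass (FDR = 0.147), and did pass without the 2 libraries high in thalamic markers (0.53 ± 0.11, FDR = 0.00105). Rnf43, a ubiquitin ligase acting on Wnt receptors, was 3.9 to 11.7 CPM against 9.3 to 11.1 CPM. Its FDR was 0.17 over the 13 libraries and 2.14e-06 without those 2 (log2 fold change 0.94 ± 0.16). With the projection neuron covariate neither Psat1 nor Rnf43 passed (0.47 and 0.87, FDR = 0.241 and 0.104). In the fit of all 53 libraries both passed (FDR = 0.00922 and 0.00324), and the study marks both as altered in striatum.

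Mcam, an adhesion molecule of vessels, was 35 to 71.1 CPM in wild-type and 21.5 to 28.7 CPM in SCA3 mice (log2 fold change -0.85 ± 0.18, FDR = 0.00264). Lgi4, a secreted protein of myelinating glia, fell by 0.43 ± 0.10 on the log2 scale, Enho, the precursor of the peptide adropin, by 0.71 ± 0.16 and Plekho2 by 0.45 ± 0.10, each without overlap between groups. With the covariate these 4 genes had log2 fold changes of -0.76, -0.38, -0.46 and -0.40 and an FDR of 0.0521, 0.0565, 0.0631 and 0.0865. Sema6d, a guidance semaphorin, was 114 to 208 CPM against 72.6 to 115 CPM (-0.80 ± 0.16, FDR = 0.00209), and was the only 1 of 75 axon guidance genes called by edgeR's likelihood ratio test in the 13 libraries. DESeq2 called 3 of them, the fit without the 2 libraries high in thalamic markers 2 higher and 1 lower, the fit with the covariate 1 higher and 1 lower, and the fit of all 53 libraries 5 higher and 10 lower. Kcnk13, a potassium leak channel, was 11.8 to 29.2 CPM against 9.57 to 11.9 CPM (-0.80 ± 0.18, FDR = 0.00678, and -0.71, FDR = 0.0905, with the covariate), the only 1 called of 65 potassium channel genes in the fit of the 13 libraries.

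Mcam was also the only lower gene whose window before the start held the cAMP response element; 48 of the 63 lower genes had windows, 64 in all. The sterol response element was in 2 of the 64 (3.12%), those of Cdc42ep4 and Gstm7, named after their values were seen. Cdc42ep4, which binds the GTPase Cdc42, was 35.6 to 49.9 CPM in wild-type and 29.8 to 34.8 CPM in SCA3 mice (log2 fold change -0.35 ± 0.09, FDR = 0.0246, and -0.31, FDR = 0.191, with the covariate). Gstm7, a glutathione transferase with close relatives, was 18.9 to 44.7 CPM against 14.8 to 23.7 CPM (-0.76 ± 0.19, FDR = 0.0282, and -0.43, FDR = 0.414, with the covariate). The Mcam window is shown with the cAMP response element in capitals, from the plus strand of chr9:44134408-44134657 (GRCm38.p6). The element covers the bases 29 to 22 before the start.
Mcam: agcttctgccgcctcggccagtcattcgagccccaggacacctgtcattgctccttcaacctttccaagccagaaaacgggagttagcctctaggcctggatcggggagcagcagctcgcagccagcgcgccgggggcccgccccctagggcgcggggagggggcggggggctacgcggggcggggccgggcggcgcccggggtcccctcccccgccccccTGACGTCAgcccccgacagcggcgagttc
Of 26 measured activity-induced and CREB target genes, 0 were called by edgeR's likelihood ratio test (6 at an unadjusted p below 0.05, and 0 by the other 3 tools), and their median log2 fold change was 0.0193. The median was -0.161 without the 2 libraries high in thalamic markers, where 1 member was called lower, and -0.311 with the projection neuron covariate, so that its sign turned in both fits. In this list, 3 of 31 windows held TGACGTCA (9.68%), those of Btg2, Dusp1 and Scg2.

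**Figure D2:**
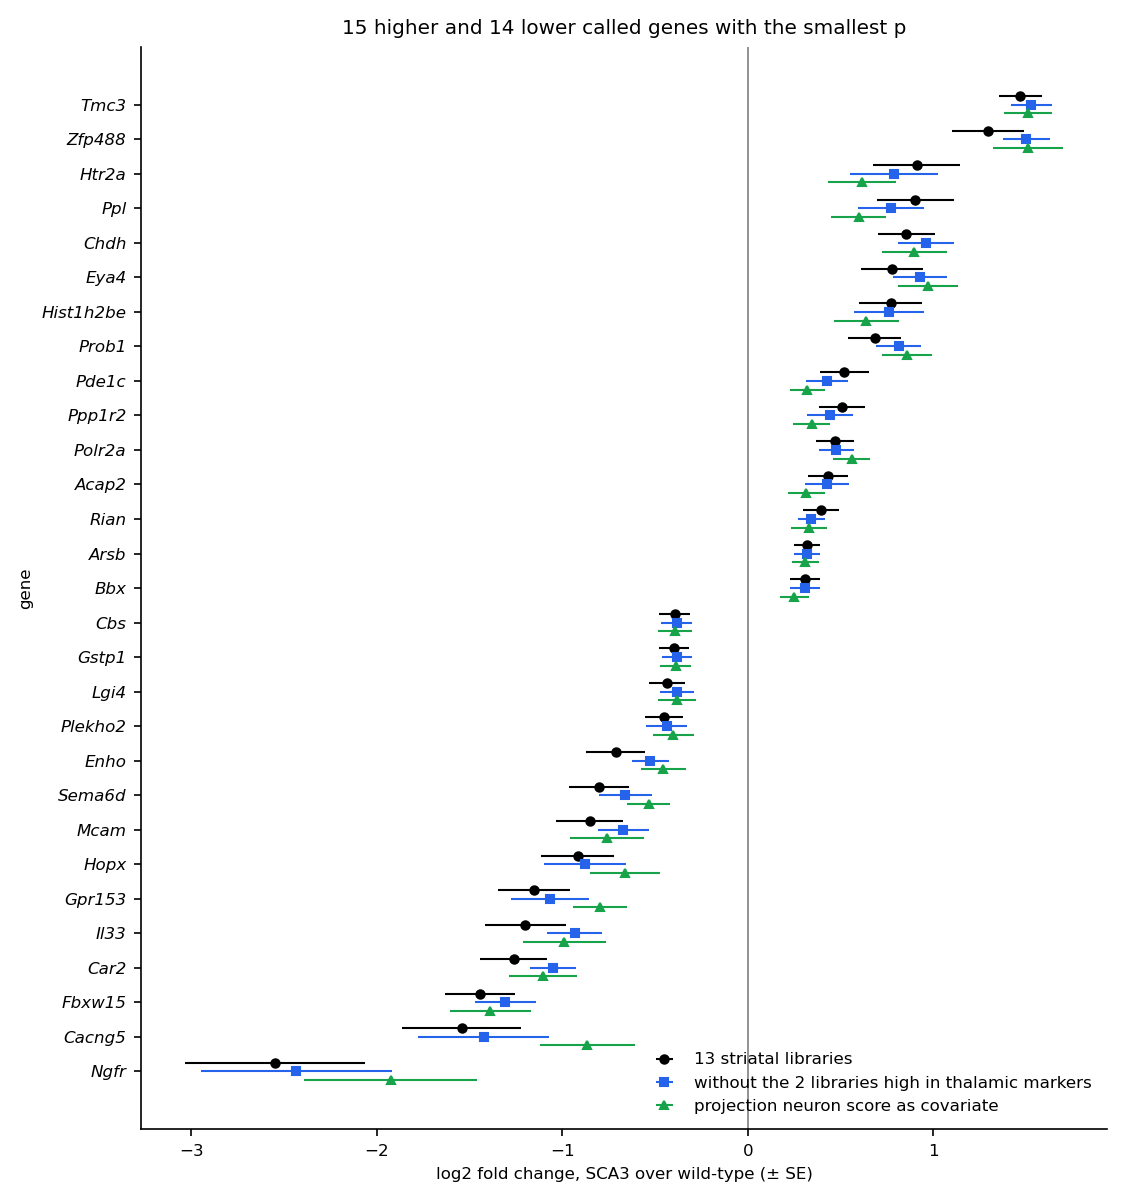
Log2 fold change (x axis, SCA3 over wild-type, ± SE) of 15 higher and 14 lower called genes with the smallest p (y axis); black circles are the fit of the 13 libraries, blue squares the fit without the 2 wild-type libraries high in thalamic markers and green triangles the fit with the projection neuron score. The 3 values nearly coincide for Tmc3, Arsb, Gstp1 and Cbs, while for Cacng5 the green value is -0.87 against -1.54.

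A further group of lower genes varied widely among the wild-type mice. Prkcd, a kinase abundant in thalamus, was 19.6 and 14.9 CPM in wild-type mice 9082857 and 9083371 and 70.9 to 841 CPM in the other 6, against 15.8, 18.9, 22.6, 17.2 and 16.6 CPM in SCA3 mice. The SCA3 libraries thus had the level of those 2 wild-type libraries. The log2 fold change was -3.47 ± 0.71 (SE, FDR = 0.0138), -2.14 ± 0.50 without the 2 libraries high in thalamic markers (FDR = 0.0147) and -0.98 ± 0.38 with the projection neuron covariate (FDR = 0.764). Zic1, a developmental factor of septum and medial forebrain that was singled out after its values were seen, was 16.7 and 20.9 CPM in those 2 wild-type mice, 88.2 to 207 CPM in the other 6, and 14.8 to 51.3 CPM in SCA3 mice.

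Cacng5, an AMPA receptor auxiliary subunit, was 14.6 and 15.2 CPM in the same 2 mice and 34 to 67.1 CPM in the others, against 12.2 to 15.8 CPM in SCA3 mice (log2 fold change -1.54 ± 0.32, FDR = 0.00392, and -0.87, FDR = 0.191, with the covariate). Rasd1, a Ras-like protein, was 2.01 and 2.19 CPM in those 2 mice, 13.5 to 45.1 CPM in the others and 1.93 to 6.87 CPM in SCA3 mice. Ctxn3 was 1.03 and 0.804 CPM, 2.11 to 23.1 CPM and 0.566 to 1.55 CPM in the same order. Hopx, a small homeodomain protein, and Igdcc4, an immunoglobulin family membrane protein, likewise had their lowest wild-type values in mice 9082857 (16.7 and 47 CPM) and 9083371 (22 and 50.7 CPM), with SCA3 ranges of 12.3 to 18 CPM and 39.5 to 50.4 CPM. Prkcd, Zic1, Cacng5, Rasd1, Ctxn3, Hopx and Igdcc4 all missed the threshold with the projection neuron covariate (FDR between 0.111 and 1), where the fold changes of Zic1, Rasd1, Ctxn3, Hopx and Igdcc4 were -1.05, -1.06, -1.16, -0.66 and -0.38, against -2.17, -2.65, -3.06, -0.92 and -0.57. The part that the dissection has in these differences was not tested beyond these fits.

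Gpr153, an orphan receptor, also had its lowest wild-type values in these 2 mice but kept its call with the covariate. It was 20 and 25 CPM in wild-type mice 9082857 and 9083371 and 31.1 to 49.2 CPM in the others, against 14.5 to 18.2 CPM in SCA3 mice (log2 fold change -1.15 ± 0.19, FDR = 3.38e-05, and -0.80 ± 0.15, FDR = 0.000111, with the covariate). Ngfr, the p75 neurotrophin receptor known from basal forebrain cholinergic neurons, kept its call too. It was 4.21 to 23.3 CPM in wild-type mice, lowest in mice 9083375 and 9083371, and 1.61, 1.32, 5.49, 1.2 and 1.42 CPM in SCA3 mice (-2.55 ± 0.49, FDR = 0.00252, and -1.93 ± 0.46, FDR = 0.0165).

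**Figure D3:**
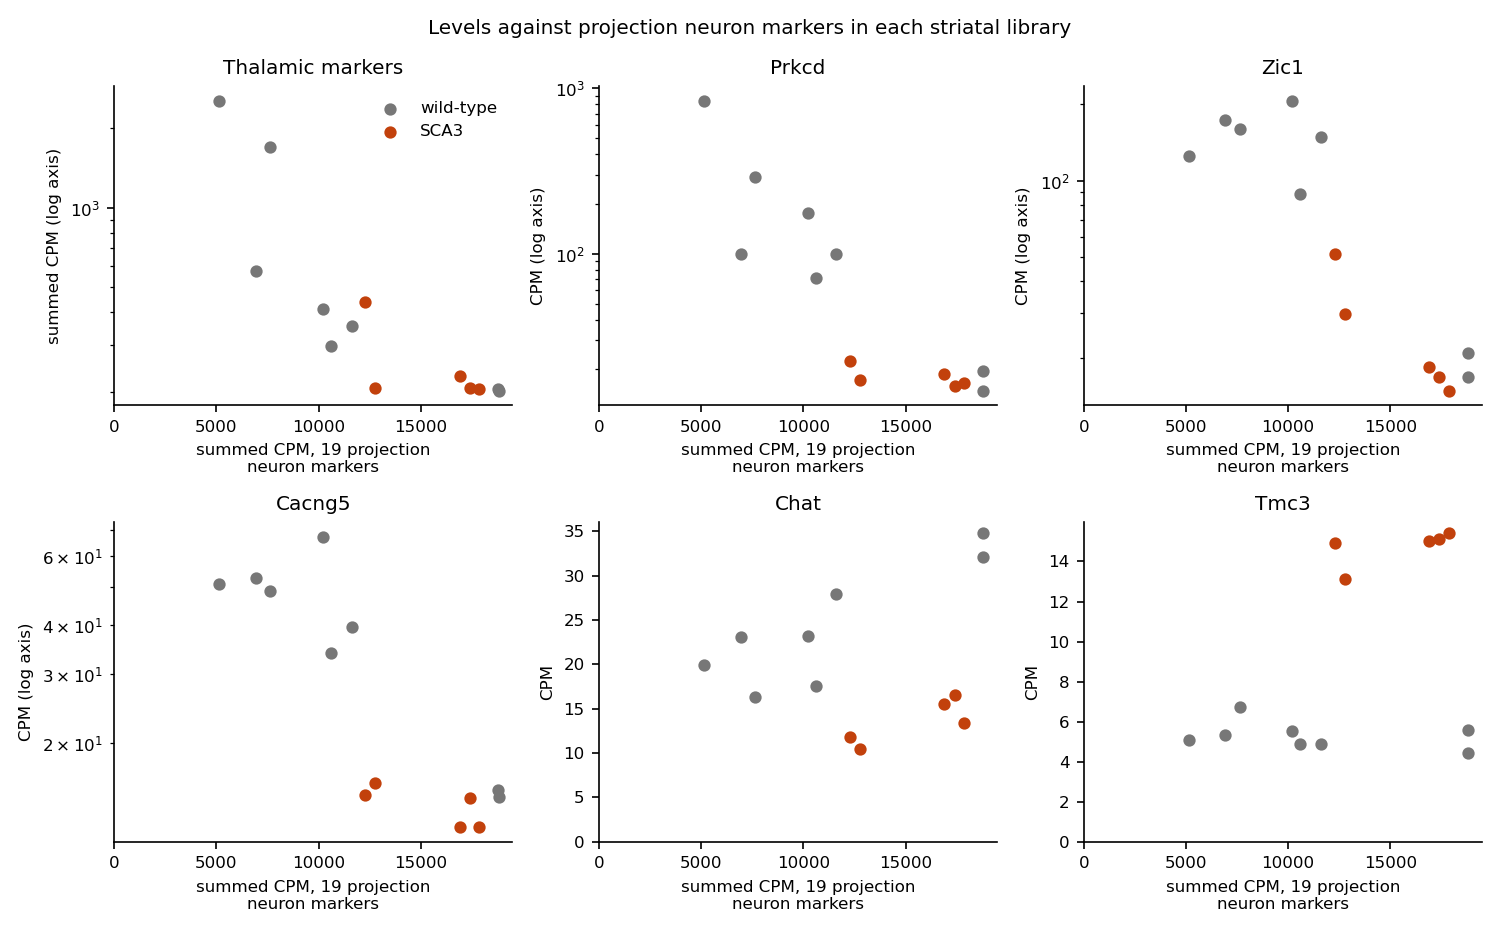
Level in each striatal library (y axes; log axis for the thalamic sum, Prkcd, Zic1 and Cacng5, linear from 0 for Chat and Tmc3) against the summed CPM of 19 projection neuron markers (x axis); grey points are wild-type and orange points SCA3 mice. For thalamic markers, Prkcd, Zic1 and Cacng5 the 2 wild-type libraries at the right lie at or near the SCA3 levels, whereas Chat separates the 2 wild-type libraries at the right (32.1 and 34.8 CPM) from the SCA3 libraries (16.6 CPM or less) and Tmc3 separates the genotypes throughout.

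Of 3 measured markers of striatal cholinergic interneurons, 2 were called lower in SCA3 mice, with a list median of -0.721. Chat, the enzyme that makes acetylcholine (chromosome 14, 32408203 to 32465909, a span that also holds Slc18a3), was 23.2, 16.3, 19.9, 34.8, 32.1, 27.9, 23.1 and 17.6 CPM in wild-type and 16.6, 15.5, 11.8, 10.5 and 13.4 CPM in SCA3 mice. The groups met only at 16.3 and 16.6 CPM, and the 2 wild-type libraries richest in projection neuron markers had the highest Chat levels. The log2 fold change was -0.84 ± 0.20 (SE, FDR = 0.0107) over all libraries, -0.96 ± 0.18 (FDR = 0.000304) without the 2 libraries high in thalamic markers, and -1.10 ± 0.16 (FDR = 9.02e-09) with the projection neuron covariate.

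Slc5a7, the transporter that takes choline back into cholinergic endings, was 50, 32.5, 34.8, 66.9, 54.5, 48.6, 46.5 and 31.2 CPM in wild-type and 30.4, 31.9, 30.8, 19.8 and 25.5 CPM in SCA3 mice. Its log2 fold change was -0.72 ± 0.19 (FDR = 0.0371) and -0.94 ± 0.17 (FDR = 8.16e-05) with the covariate. Ache, acetylcholinesterase, the third measured gene of the list, was 63.2 to 117 CPM against 59.3 to 71 CPM and did not pass (-0.44 ± 0.15, FDR = 0.146). Its value was -0.42 without the 2 libraries high in thalamic markers and -0.27 with the covariate, and passed in neither fit. The calls of Chat and Slc5a7 were less firm than those of Tmc3 or Car2. In the fit of all 53 libraries neither was called (-0.84 ± 0.85, FDR = 0.591, and -0.72 ± 0.79, FDR = 0.622). Chat was called under 23 and Slc5a7 under 16 of the 34 alternatives, Chat lost its call without SCA3 mouse 9083514 or 9083515 (FDR 0.055 to 0.084) and Slc5a7 without any 1 of 7 mice. In the largest series of mouse numbers the fold changes were -1.08 and -1.01 without passing the test (FDR = 0.07 and 0.061), and in the second, which holds the 2 libraries high in thalamic markers, -0.30 and -0.329 (FDR = 0.38 and 0.39).

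Projection neuron markers had higher means in SCA3 mice, but 0 of the 19 shared markers was called by edgeR's likelihood ratio test. At an unadjusted p below 0.05 stood 3 of the 19, against 1735 of 12372 over all genes. The quasi-likelihood test, limma-voom and DESeq2 called 0 of them. All 19 fold changes were positive, with a median of 0.475. Without the 2 libraries high in thalamic markers the median was 0.271. Ppp1r1b, for example, was 247 to 1234 CPM in wild-type and 698 to 1175 CPM in SCA3 mice. Among the 5 direct and 5 indirect pathway markers none was called either (3 and 0 at an unadjusted p below 0.05, 0 by the other tools). Drd1 had a log2 fold change of 0.47 ± 0.31 and Drd2 of 0.38 ± 0.34. Tac1, the precursor of substance P made by direct pathway neurons, was 64.9 to 267 CPM in wild-type and 220 to 318 CPM in SCA3 mice (0.80 ± 0.28, FDR = 0.146), and was called with the projection neuron covariate (0.34, FDR = 0.0141).

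Of 44 dopamine and cAMP signalling genes, 1 was called, the Pde1c described above, and the median log2 fold change was 0.176 and -0.0171 with the covariate. Members of this list, namely Ppp1r1b, Pde10a, Rgs9, Adcy5, Gnal, Pde1b and Gng7, are also among the markers that make up the covariate. The change in the median therefore follows in part from that overlap, and no conclusion is drawn from it. Of 42 long-term potentiation genes, Prkcd and the kinase Rps6ka1 were called, both lower. Rps6ka1 was 17.3 to 28.1 CPM in wild-type and 13.6 to 16.4 CPM in SCA3 mice (-0.48 ± 0.13, FDR = 0.0474, and -0.30, FDR = 0.585, with the covariate). No gene was called among 25 glutamate receptor genes (5 at an unadjusted p below 0.05, 0 by the other tools), 20 genes of GABA transmission (3, and 1 by DESeq2) and 6 adrenergic receptors (1, and 0).

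**Figure D4:**
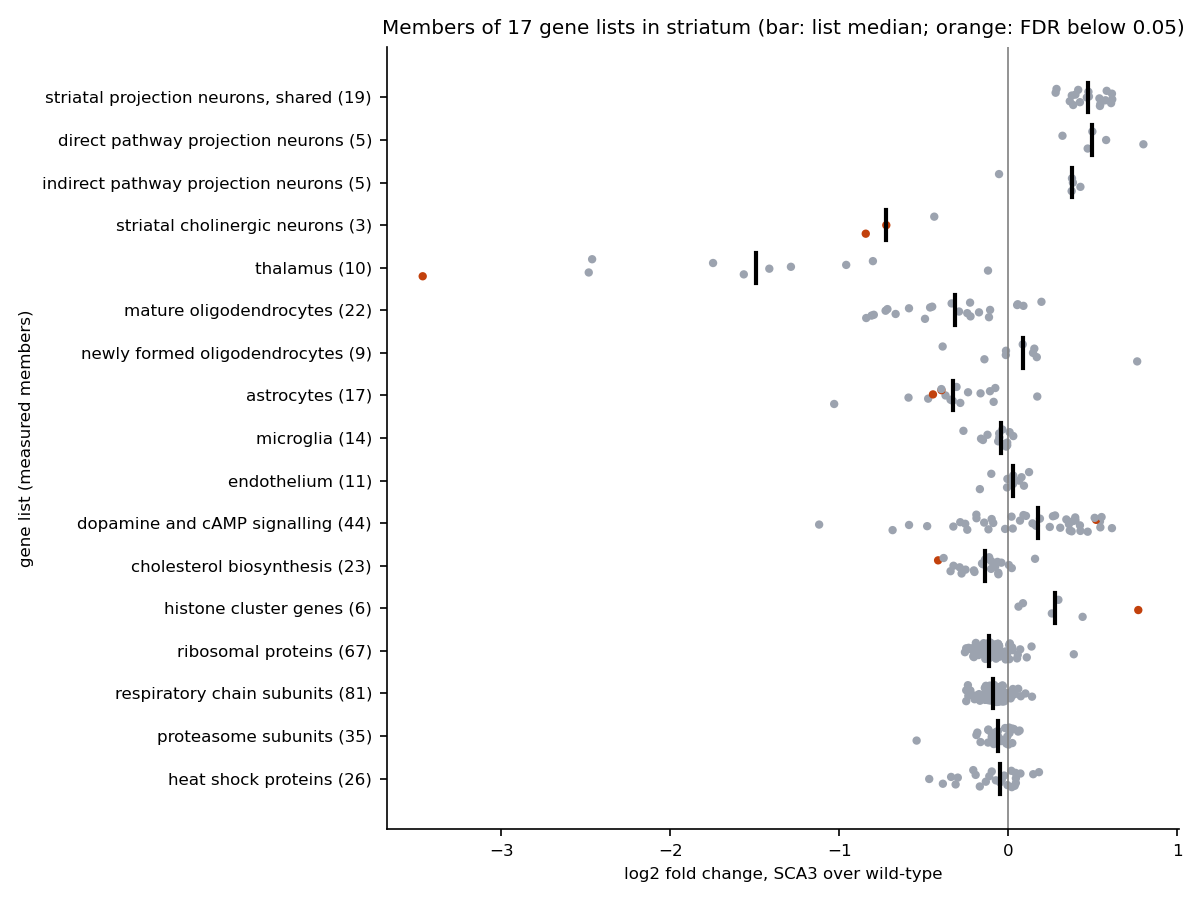
Log2 fold change in striatum (x axis, SCA3 over wild-type) of each measured member of 17 gene lists (y axis, number of measured members in brackets); black bars are list medians and orange points members with an FDR below 0.05. Projection neuron markers lie above 0 and thalamic markers below 0 as whole lists, with medians of 0.475 and -1.49, although 0 and 1 of their members passed the test. Without the 2 libraries high in thalamic markers the medians are 0.271 and -0.0564. Those 2 libraries were picked by the sum of this same thalamic list, so the change in its median follows in part from that choice.

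Of 17 astrocyte genes 16 had negative fold changes, the median was -0.328, and 2 passed the test, Cbs and Glul. Glul, the glutamine synthetase by which astrocytes recycle glutamate (chromosome 1, 153899929 to 153909723), was 1246 to 2061 CPM in wild-type and 1125 to 1251 CPM in SCA3 mice (-0.45 ± 0.12, FDR = 0.0399, and -0.33, FDR = 0.414, with the covariate). Aldh1l1 was 52.9 to 75 CPM against 41.4 to 51.2 CPM without overlap, yet did not pass (-0.34 ± 0.11, FDR = 0.12). Gfap, which marks reactive astrocytes, was 118 to 718 CPM against 84.9 to 191 CPM (-1.03 ± 0.43, FDR = 0.275), and its value was -0.31 without the 2 libraries high in thalamic markers and -0.20 with the covariate. The median of the list was -0.223 without the 2 libraries high in thalamic markers and -0.191 with the projection neuron covariate.

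Of 22 mature oligodendrocyte markers, 0 were called (8 at an unadjusted p below 0.05, 0 by the quasi-likelihood test or limma-voom, 1 by DESeq2). Their median of -0.313 became -0.0568 without the 2 libraries that were highest in these markers. Mbp, myelin basic protein, was 3110 to 8757 CPM in wild-type and 2958 to 4278 CPM in SCA3 mice (-0.49 ± 0.24, FDR = 0.341). Of 9 markers of newly formed oligodendrocytes 0 were called (1 at an unadjusted p below 0.05, 0 by the quasi-likelihood test or limma-voom, 1 by DESeq2), with 5 positive and 4 negative fold changes and a median of 0.0864. Enpp6, 1 of these markers, and S100b were singled out after their values were seen. Enpp6 was 9.32 to 22.6 CPM in wild-type, highest in the same 2 libraries, and 22.4, 21.5, 32.1, 20.8 and 24.8 CPM in SCA3 mice. Enpp6 did not pass over the 13 striatal libraries (0.76 ± 0.22, FDR = 0.0673). It passed without those 2 (1.02 ± 0.17, FDR = 2.54e-06) and with the projection neuron covariate (0.97 ± 0.23, FDR = 0.015). In the fit of all 53 libraries Enpp6 passed too (FDR = 0.00589), and the study marks it as altered in striatum. S100b, of astrocytes and oligodendrocytes, had a log2 fold change of 0.17 ± 0.26 (FDR = 0.785) over the 13 libraries. It was 0.55 ± 0.12 (FDR = 0.00316) without those 2 libraries and 0.58 (FDR = 0.464) with the projection neuron covariate. None of 14 microglial and 11 endothelial markers was called (0 and 0 at an unadjusted p below 0.05, 0 by the other tools), with medians of -0.0432 and 0.0299. Of 8 GABA interneuron, 8 cortical neuron, 8 oligodendrocyte precursor and 6 mural and meningeal markers 0 were called as well (1, 1, 3 and 2 at an unadjusted p below 0.05, and 1 precursor marker by DESeq2).

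Dhcr7, the last enzyme of one branch of cholesterol synthesis, was 25.9 to 35.3 CPM in wild-type and 20.3 to 27.2 CPM in SCA3 mice (log2 fold change -0.41 ± 0.10, FDR = 0.0157). It lost its call with the projection neuron covariate (-0.32, FDR = 0.195) and without SCA3 mouse 7267054, 7267056 or 9083515 (FDR 0.074 to 0.16). Dhcr7 was the only 1 called of 23 cholesterol biosynthesis genes, of which 20 had negative fold changes with a median of -0.137. Cyp51, Hmgcs1 and Insig1 had values of -0.32 ± 0.14, -0.28 ± 0.16 and -0.38 ± 0.14, none of which passed (FDR = 0.29, 0.414 and 0.18). The median was -0.127 without the 2 libraries high in thalamic markers and -0.0511 with the projection neuron covariate.

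Singled out after their values were seen, Acly, which makes cytosolic acetyl-CoA, was 230 to 299 CPM in wild-type and 208 to 241 CPM in SCA3 mice (-0.34 ± 0.08, FDR = 0.0142, and -0.35 ± 0.09, FDR = 0.0193, with the covariate). Fads2, a fatty acid desaturase, was 78.2 to 118 CPM against 71.4 to 82.5 CPM (-0.42 ± 0.11, FDR = 0.0268). Mid1ip1, which activates acetyl-CoA carboxylase, was 98.5 to 167 CPM against 81.7 to 103 CPM (-0.49 ± 0.12, FDR = 0.0157), and Apoe, the lipid carrier secreted by astrocytes, 1267 to 1966 CPM against 1086 to 1310 CPM (-0.39 ± 0.11, FDR = 0.0399). Fads2, Mid1ip1 and Apoe had values of -0.25, -0.37 and -0.32 with the covariate (FDR = 0.24, 0.19 and 0.293). Abca8b, a lipid transporter with closely related neighbouring genes, lay on the other side, with 28.9 to 48 CPM against 47.3 to 60.7 CPM (0.47 ± 0.12, FDR = 0.0315, and 0.28, FDR = 0.316, with the covariate). Qdpr, which regenerates tetrahydrobiopterin, was 190 to 406 CPM against 140 to 188 CPM without overlap (-0.70 ± 0.17, FDR = 0.0238, and -0.56, FDR = 0.248, with the covariate).

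The sterol response element was found before the start of 1 of the 17 cholesterol genes with windows, Hmgcs1, which makes HMG-CoA. Its window is shown as the example of that motif, in capitals, on the plus strand of chr13:119690101-119690350 (GRCm38.p6), with the element 137 to 129 bases before the start.
Hmgcs1: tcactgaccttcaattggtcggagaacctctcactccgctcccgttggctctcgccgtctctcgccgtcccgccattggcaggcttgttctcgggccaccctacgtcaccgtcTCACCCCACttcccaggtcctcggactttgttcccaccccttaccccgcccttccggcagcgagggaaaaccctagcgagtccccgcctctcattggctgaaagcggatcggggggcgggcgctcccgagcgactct
Of the windows of the list, 5% (1 of 20) held the element, against 1.05% of the windows of all measured genes.

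No gene was called in 3 lists of basic cell functions. Of 67 ribosomal protein genes 56 had negative fold changes, with a median of -0.111, and 0 were called (11 at an unadjusted p below 0.05, 0 by the quasi-likelihood test and limma-voom, 5 by DESeq2). Of 81 respiratory chain genes 70 were negative with a median of -0.0891, and of 35 proteasome genes 27 were negative with a median of -0.0627, again with 0 calls (9 and 1 at an unadjusted p below 0.05, 0 and 1 by DESeq2, 0 by the other tools). Over all 12372 genes, 1735 had an unadjusted p below 0.05 in the likelihood ratio test and DESeq2 called 213. Without the 2 libraries high in thalamic markers the 3 medians were -0.116, -0.0418 and -0.0265, and with the projection neuron covariate -0.126, -0.0327 and -0.00405.

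The fit of all 53 libraries, the design of the study, called more members of several lists, against its 2.07% of all genes higher and 5.47% lower. It called 9 of 17 astrocyte, 7 of 22 mature oligodendrocyte and 6 of 10 thalamic markers, all lower. It called 1 newly formed oligodendrocyte marker and 1 precursor marker higher and 1 GABA interneuron marker lower. Of 10 markers of neurons in general it called 3 lower (0 in the fit of the 13 libraries). It called 0 markers of projection neurons, cholinergic neurons, cortical neurons, microglia, endothelium, and mural and meningeal cells. Of the dopamine and cAMP genes it called 3 higher and 5 lower, and of the long-term potentiation genes 2 higher and 4 lower. It called 2 glutamate receptor, 2 adrenergic receptor, 1 GABA transmission, 7 potassium channel, 3 cholesterol biosynthesis, 2 respiratory chain, 1 ribosomal, 1 proteasome and 1 heat shock gene lower. Of the one-carbon genes it called 2 higher and 4 lower, and 1 gene of ataxin-3 partners was higher.

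To ask whether striatal effects differed from those elsewhere, the striatal genotype effect was compared with the mean effect of the other 3 regions in a fit of all 53 libraries. For 121 genes (0.978%) the difference passed an FDR of 0.05, 17 of them with a larger value in striatum and 104 with a smaller one, and 22 of the 121 were among the 88 striatal calls. This fit does not take into account that 1 mouse gave several libraries. With the mouse as a fixed block 98 genes differed, 81 of them among the 121, whereas limma-voom called 2 with the mouse as a random block and 0 without it (2163 and 1811 at an unadjusted p below 0.05), so that the single genes below rest on the edgeR test. The 5 genes with the smallest p were Prkcd, Gpr153, Igdcc4, Ctxn3 and Rasd1, all described above as low in wild-type mice 9082857 and 9083371. Prkcd had log2 fold changes of 0.15 ± 0.28 in brainstem, 0.05 ± 0.13 in cerebellum and 0.41 ± 0.49 in cortex, and its difference was -3.67 ± 0.58 (FDR = 0.000125). Gpr153 had 0.02 ± 0.10, -0.00 ± 0.10 and -0.29 ± 0.20 in the same order, with a difference of -1.06 ± 0.19 (FDR = 0.000146). Without the 2 libraries high in thalamic markers 24 genes differed, 1 with a larger value in striatum. This number too rested on single mice, with 7 genes when SCA3 mouse 7267056 was left out and 668 when wild-type mouse 9082857 was.

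Tmc3 was among the 17 genes with a larger value in striatum: its log2 fold change of 1.47 stood beside 1.16 ± 0.13 in brainstem, 0.42 ± 0.13 in cerebellum and 1.17 ± 0.18 in cortex, with a difference of 0.55 ± 0.15 (FDR = 0.0365). Acap2, with 0.43 in striatum against -0.11 ± 0.09, 0.06 ± 0.06 and 0.23 ± 0.08, also differed (0.37 ± 0.10, FDR = 0.0266). Zfp488 rose in each region, by 1.29 in striatum, 1.78 in brainstem, 1.25 in cerebellum and 1.45 in cortex, and its difference of -0.20 ± 0.20 did not pass (FDR = 0.686). Car2 fell by 1.26 in striatum, 1.26 in brainstem, 0.64 in cerebellum and 0.71 in cortex on the log2 scale (difference -0.39 ± 0.15, FDR = 0.192), and Il33 by 1.20, 1.35, 0.98 and 0.87 (difference -0.13 ± 0.19, FDR = 0.798). For Chdh the difference was 0.00 ± 0.14 (FDR = 1). Fbxw15 was called in striatum and brainstem (-1.80 ± 0.18) and not in cerebellum (-0.84 ± 0.26, FDR = 0.246) or cortex (-0.79 ± 0.21, FDR = 0.0705), and its difference did not pass (FDR = 0.598).

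Gstt1 and Enho had a larger fall in striatum than elsewhere (differences -0.47 ± 0.11 and -0.49 ± 0.13, FDR = 0.0176 and 0.0273), as had Sema6d, Ngfr, Cacng5 and Zic1 (FDR between 0.0152 and 0.0493). The fall of Chat could not be placed against other regions, since its difference was -0.23 ± 0.98.

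**Figure D5:**
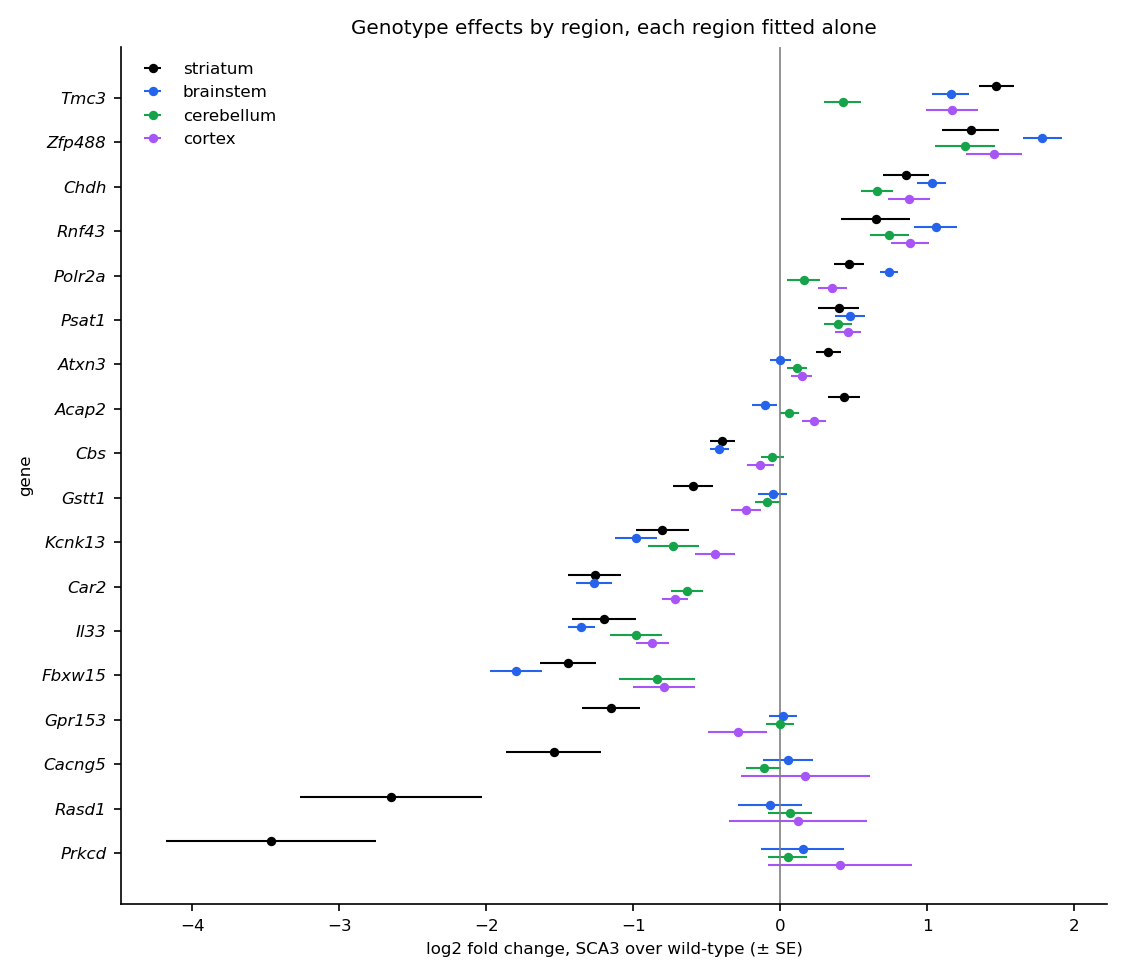
Log2 fold change (x axis, SCA3 over wild-type, ± SE) of 18 genes (y axis) in striatum (black), brainstem (blue), cerebellum (green) and cortex (purple), each region fitted alone. Tmc3, Zfp488, Chdh, Car2 and Il33 lie on 1 side of 0 in all 4 regions, whereas Gpr153, Cacng5, Rasd1 and Prkcd depart from 0 mainly in striatum, where Prkcd has -3.47, and -2.14 without the 2 libraries high in thalamic markers.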

How the data were processed

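Poly-A RNA of striatum was sequenced without strand information. The values deposited by the authors are raw counts per RefSeq gene. According to their methods and processing notes, reads were trimmed (cutadapt 1.10), aligned to GRCm38 with STAR 2.3.0e, keeping unique alignments, and counted with HTSeq 0.6.1. Counts of overlapping, antisense or near-identical genes are uncertain for this reason. The authors kept genes whose average over all samples exceeded 4 CPM (12372 genes). In striatum, 12165 of these had a mean of at least 4 CPM.

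The 13 striatal libraries were fitted on their own with edgeR 4.0.16 (TMM, negative binomial likelihood ratio test) in R 4.3.3, with Benjamini-Hochberg adjustment over all genes. Fold changes (SCA3 over wild-type) are given as log2 values with standard errors, and CPM values use TMM-adjusted totals. The study fitted all regions together, and this is given as an alternative. The contrast with the other regions used 53 libraries. For bodyweight, RIN and depth, two-sided permutation tests were run exactly. Both edgeR fits were tested on simulated data.

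The members and gene lists were chosen with earlier results of these data known. Genes named were Atxn3, 8 genes that the study measured by qPCR or named as altered in all regions, the 15 higher and 15 lower calls with the smallest p, the 5 genes with the smallest p between regions, and called list members (42 genes, with 1 of the lower calls not reported here), and 14 more, named after their values were seen. Counts of called genes in lists are adjusted over all genes. Alternatives were the edgeR quasi-likelihood test, DESeq2 1.42.0, limma-voom (limma 3.58.1), RLE size factors, all 53 libraries, filters (10 counts in every library; mean of 4 CPM), covariates (RIN, number series, marker scores, 1 surrogate variable from sva 3.50.0), a RIN of at least 7 (10 libraries), libraries without high thalamic markers (over 3 times the median), number series alone, and leaving out each mouse. The projection neuron covariate, and 2 other tests without the libraries high in thalamic markers, were added after seeing the data. Labels do not say whether mice shared a cage or litter, and p-values of the striatal fits measure the spread between these mice. The fits of all 53 libraries without a mouse term treat libraries of the same mouse as independent. Positions came from RefSeq GRCm38.p6 (99.77% of genes placed).

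Mice pair libraries across regions: deviations from group means correlated between striatum and another region with a mean r of 0.113 to 0.186 (12 or 13 mice), and 0.14 in the blocked fit. Within striatum each mouse gave 1 library, so nothing is paired there.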

Additional observations from a re-analysis of the deposited data

Results flagged for a closer look

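Over 118 groups of libraries tested for a single value far from the rest, 10 were flagged, where chance flags about 1 in 20. In wild-type mouse 7267059, Zfp488 (9.76 against the next highest 5.87 CPM, gap over range 0.69), Prkcd (841 and 290 CPM, 0.667) and S100b (294 and 188 CPM, 0.537) were high and Rian was low (538 and 704 CPM, 0.665). This library also had the highest thalamic and oligodendrocyte sums. In wild-type mouse 9082857, Htr2a (21.2 and 12.8 CPM, 0.632) and Bbx (73.2 and 65.1 CPM, 0.531) were high. In wild-type mouse 7267058, Cdc42ep4 was high (49.9 and 41.5 CPM, 0.588). In wild-type mouse 9083375, Acly was low (230 and 272 CPM, 0.609). Among SCA3 mice, Tmc3 was low in mouse 9083514 (13.1 and 14.9 CPM, 0.761) and Ngfr high in mouse 9082853 (5.49 and 1.61 CPM, 0.905), the SCA3 library with the highest thalamic sum, 438 CPM.

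For 14 named genes the striatal effect differed from the mean of the other regions by the contrast test. The differences were positive for Tmc3 (0.554), Abca8b (0.385) and Acap2 (0.37). They were negative for Gpr153 (-1.06), Sema6d (-0.613), Ngfr (-2.19), Cacng5 (-1.58), Enho (-0.495), Prkcd (-3.67), Igdcc4 (-0.508), Ctxn3 (-3.23), Rasd1 (-2.69), Gstt1 (-0.467) and Zic1 (-2.32). The part of the tissue dissected in these differences was not tested.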

How the results depend on the processing

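Against 88 genes called in striatum, the quasi-likelihood test called 6, limma-voom 8 and DESeq2 213. A fit of all 53 libraries called 933, limma-voom on them 696, and 713 with the mouse as a random block. The oligodendrocyte score as covariate gave 325 calls, the projection neuron score 33, 1 surrogate variable 49 and a RIN of at least 7 gave 19. Without the libraries high in thalamic markers, the quasi-likelihood test called 13 and limma-voom 10. The largest number series alone gave 20 and the second 1741. Leaving out each mouse gave 19 to 538. The remaining alternatives stayed within 1.5 times the main count. The share of higher genes rose from 25 of 88 to 51 of 85 with the thalamic score as covariate.

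Against 121 genes whose striatal effect differed from the other regions, the quasi-likelihood test called 19 and limma-voom 0 (1811 at an unadjusted p below 0.05). The replicate block, which pairs libraries of a mouse, gave 2 as a random term in limma-voom and 98 as a fixed term in edgeR. A RIN of at least 7 left 3, leaving out the libraries high in thalamic markers 24, and leaving out each mouse 7 to 668. Besides the 2 extremes, the count was 25, 41, 28, 481, 30 and 16 without wild-type mice 7267055, 7267058, 7267059, 9083371, 9083372 and 9083373, and 14, 246, 188 and 11 without SCA3 mice 7267054, 9082853, 9083514 and 9083515.

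Of 52 called genes named in the text, 4 (Tmc3, Zfp488, Car2, Fbxw15) kept their call under all 34 alternatives, 10 (those 4 included) lost it under at most 4, 16 kept it under fewer than 20, and 0 changed sign. S100b, not called, changed sign in the second number series alone (-0.398). The RIN difference ran from -0.30 to 0.35 when mice were left out, changing sign to 0.143 without mouse 9083371 and 0.35 without mouse 7267054. By medians, the counts per library difference was -5.43 M counts. The bodyweight difference kept its direction and call (-13.3 to -10.9 g). The cause of the changes in count was not tested.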
